A study of Rattus norvegicus and Bos taurus with 6 samples.

Results

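Smooth muscle contractile and pericyte genes were followed through 6 single-nucleus RNA-seq libraries of rat and cow fat. The set was chosen by symbol, matched in any case, and holds 10 genes (Acta2, Myh11, Tagln, Cnn1, Mylk, Lmod1, Carmn, Myocd, Rgs5 and Des) of the 80567 gene identifiers in all files. All 10 were listed in the 4 rat libraries made with the Parse kit, and 9 in the rat library made with the 10x kit and in the cow library, where no gene carried the symbol Carmn.

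The rat libraries came from male Dahl salt-sensitive rats (strain SS/HsdMcwiCrl) on a normal diet, and the cow library from the flank subcutaneous white fat of lactating Holstein cows. Rat tissues were mesenteric perivascular fat (mesPVAT, by 10x and by Parse), retroperitoneal (RP) fat, thoracic aortic perivascular fat (taPVAT) and subscapular brown fat (BAT). Parse mesPVAT and Parse RP fat are named here as the depositors labelled them. The medians per nucleus that the study gives for this pair differ from those of the files under these labels, so every direction between these libraries, and between the mesPVAT libraries of both kits, holds for the libraries as labelled and may not hold for the depots. All tissue was snap-frozen, the labels give no age, and taPVAT was dissected from the thoracic aorta. Each condition had 1 library and no replicate, so no difference between libraries was tested, and every 95% interval, exact Poisson for UMIs and exact binomial for shares, covers counting error only.

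Smooth muscle cells and pericytes are the mural cells of blood vessels. Smooth muscle cells wrap arteries and veins and shorten when myosin light chain kinase phosphorylates myosin, which then slides along filaments of smooth muscle actin, and myocardin drives these genes together with serum response factor. Pericytes sit on capillaries inside the basement membrane, carry little of the contractile apparatus, and are commonly recognised by Rgs5, a regulator of G protein signalling.

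The libraries differed in depth. They held between 2297 and 5887 nuclei and between 845316 and 16827260 UMIs. The median was 161 UMIs per nucleus in 10x mesPVAT, 346 in Parse mesPVAT, 213 in Parse RP fat, 1246 in taPVAT, 1706 in BAT, with 3530 in cow WAT. No barcode was shared between libraries. The doublet caller Scrublet marked at most 7 nuclei of a library, too few to have worked, so doublets remain in all values.

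The upstream sequence of Acta2 is shown because serum response factor binds the CArG box and Acta2 is a well-known target of it. The sequence is the 250 bases before the gene start in RefSeq (GRCr8, chr1:241172504-241172753, minus strand), printed 5′ to 3′. Capitals mark the boxes that differ from the CArG box by 1 letter, and the box reads the same on both strands.
Acta2: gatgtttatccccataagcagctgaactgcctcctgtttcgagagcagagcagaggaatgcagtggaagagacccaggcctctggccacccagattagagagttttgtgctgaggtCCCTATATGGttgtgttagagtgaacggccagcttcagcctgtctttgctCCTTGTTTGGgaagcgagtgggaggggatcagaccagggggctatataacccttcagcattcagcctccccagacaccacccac
These boxes start at positions −134 and −84 from the gene start. RefSeq promoter entries of 300 bases were held for 6 of the 10 genes. None of the 6 had a perfect box, and 2 (Acta2 and Carmn, the latter at −210 and −32) had a box with at most 1 letter off. Over all 33469 entries, 1.64% held a perfect box and 21.3% a box with at most 1 letter off. No other motif was searched, and a match describes the letters only.

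Carmn, a long noncoding RNA of smooth muscle, spans the hairpins of miR-143 and miR-145 on rat chromosome 18. Their mature sequences are printed to show what the Carmn locus contains, with the seed (bases 2 to 8) in capitals and credit to RefSeq (GRCr8). The miRNAs themselves were not measured in these libraries.
rno-miR-143-3p: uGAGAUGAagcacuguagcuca
rno-miR-145-5p: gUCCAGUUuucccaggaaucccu
The pair has different seeds. Other members also share ground with annotated genes. In RefSeq, Mylk overlaps 4 genes, and Lmod1, Myocd and Des overlap 1 each, so some of their reads may belong to the partner.

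Levels are UMIs summed over all nuclei of a library and given per 1000000 UMIs of that library (CPM). In such a sum, fewer cells of a type and less RNA per cell cannot be told apart. Acta2, smooth muscle actin, stood at 9.70 CPM in 10x mesPVAT, 28.4 in Parse mesPVAT, 31.9 in Parse RP fat, 48.4 in taPVAT, 70.0 in BAT, with 65.3 in cow WAT. BAT and cow WAT were highest and their intervals overlapped. Myh11, the smooth muscle myosin heavy chain, was ordered differently. It stood at 16.2 CPM in 10x mesPVAT, 556 in Parse mesPVAT, 431 in Parse RP fat, 238 in taPVAT, 493 in BAT, with 141 in cow WAT. Parse mesPVAT was thus highest for Myh11 (interval 521 to 593), with no overlap with BAT (476 to 511), although in sublibrary 2 alone BAT was higher (634 against 571 CPM), while for Acta2 it was above 10x mesPVAT alone.

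Mylk, myosin light chain kinase, and Lmod1, leiomodin 1, which starts actin filaments, were both highest in the brown depots. Mylk stood at 43.6 CPM in 10x mesPVAT, 184 in Parse mesPVAT, 222 in Parse RP fat, 464 in taPVAT, 554 in BAT, with 186 in cow WAT. Lmod1 stood at 4.04, 53.1, 72.2, 158, 202 and 25.0 CPM in the same order. For both genes, the intervals of taPVAT and BAT lay apart from each other and from every other library.

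Tagln (transgelin, an actin-binding protein), Cnn1 (calponin, an inhibitor of actomyosin) and Des (the intermediate filament desmin) were sparse. Tagln stood at 8.89, 10.9, 23.7, 16.7, 24.8 and 17.6 CPM in the same order, and each library's interval overlapped that of its neighbour in level. Cnn1 had 0 UMIs in 10x mesPVAT, which allows up to 2.42 CPM at 3 counts, and between 2.41 CPM in Parse mesPVAT and 7.67 CPM in cow WAT elsewhere. Des was highest in Parse RP fat, at 22.5 CPM (13.5 to 35.1), and lay between 5.66 and 10.4 CPM in the other 5 libraries, whose neighbouring intervals overlapped.

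Myocd, the transcriptional coactivator myocardin, had another order of libraries than Acta2, Mylk and Lmod1. It stood at 1.62 CPM in 10x mesPVAT, 35.0 in Parse mesPVAT, 58.0 in Parse RP fat, 11.2 in taPVAT, 17.3 in BAT, with 20.4 in cow WAT. Parse RP fat was highest, as for Des, although its interval overlapped that of Parse mesPVAT, and both lay above taPVAT, BAT and cow WAT without overlap. Carmn stood at 167 CPM in Parse mesPVAT, 88.7 in Parse RP fat, 144 in taPVAT and 207 in BAT, so BAT led.

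Rgs5, the pericyte gene, stood at 7.27 CPM in 10x mesPVAT, 32.6 in Parse mesPVAT, 54.4 in Parse RP fat, 81.8 in taPVAT, 109 in BAT, with 27.8 in cow WAT. BAT and then taPVAT were highest, without overlap with each other or the rest. The identifier behind the symbol Rgs5 differs between the 10x and the Parse files, so the 10x level of this gene may rest on another gene model.

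**Figure D1:**
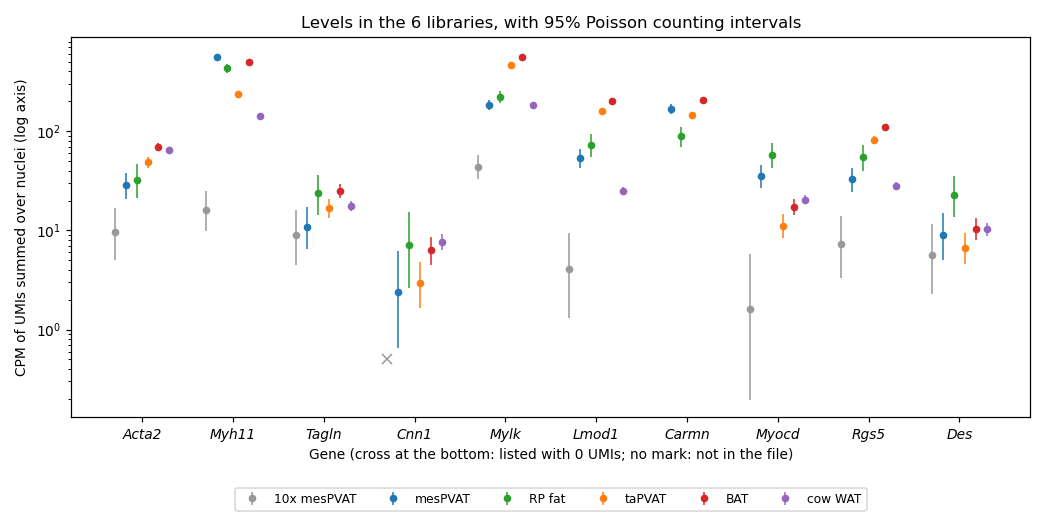
CPM (log axis) of each gene in the 6 libraries, with points for libraries and bars for 95% Poisson counting intervals, where a cross at the bottom stands for 0 UMIs and no mark for a gene not in the file. Myh11 is highest in Parse mesPVAT at 556 CPM, whereas Mylk, Lmod1 and Rgs5 are highest in BAT, at 554, 202 and 109 CPM.

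Between the brown depots, all 10 genes were lower in taPVAT than in BAT in UMIs summed over nuclei, with ratios from 0.465 for Cnn1 to 0.837 for Mylk and no counting interval that reached 1. For Acta2 and Cnn1 this direction turned under other settings. With each nucleus weighted equally, Acta2 stood at 57.3 CPM in taPVAT and 52.3 CPM in BAT, and Cnn1 at 7.15 and 5.50 CPM. In sublibrary 1 alone, Acta2 stood at 52.7 and 47.5 CPM, and Cnn1 at 2.65 and 1.90 CPM. Rgs5 stood at 107 and 117 CPM with nuclei weighted equally, closer than in the sums. The median ratio was 0.681, against 1.08 over all genes tested. A change of at least 2-fold was used as the call, for genes with at least 20 UMIs over both libraries. None was higher in taPVAT (5.99% of all genes were) and 2 of 10 were higher in BAT (1.1% of all genes), namely Myh11 by 2.07-fold (interval 1.94 to 2.22) and Cnn1 by 2.15-fold (1.16 to 4.19). The other contractile and smooth muscle genes (other contractile genes below) moved less, with 2 of 33 past 2-fold, both higher in BAT. These were Casq2, the calcium store protein calsequestrin, by 2.06-fold and Ppp1r14a, an inhibitor of myosin phosphatase, by 2.495-fold. None of 16 other pericyte and mural genes (other pericyte genes below) passed 2-fold in either direction.

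The Myh11 difference rested on few nuclei. In BAT, the 2 sublibraries of the library held 353 and 634 CPM of Myh11, against 280 and 193 CPM in taPVAT. A single BAT nucleus carried 208 UMIs of Myh11 and 59 of Acta2 with 0 of Rgs5, and without it BAT stood at 462 CPM. With the study's limits on UMIs, genes and mitochondrial share, which that nucleus failed, BAT stood at 436 CPM and only 1 gene stayed past 2-fold. With each nucleus weighted equally, Myh11 stood at 378 CPM in BAT and 319 CPM in taPVAT.

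Between the white Parse depots, none of 9 genes was at least 2-fold higher in Parse mesPVAT (5.86% of all genes) and 2 were higher in Parse RP fat (9.8% of all genes). These were Tagln, by 2.18-fold (interval 1.09 to 4.37), and Des, by 2.48-fold (1.195 to 5.25). In sublibrary 2 alone, Tagln was higher in Parse mesPVAT instead, at 12.6 against 10.9 CPM. Myh11 and Carmn went the other way, by 1.29-fold and 1.88-fold. Of the other contractile genes, 6 of 32 were at least 2-fold higher in Parse mesPVAT and 3 in Parse RP fat, and of the other pericyte genes 2 of 13 and 0.

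The 2 mesPVAT libraries differed more. Of 8 genes, 6 were at least 2-fold higher in the Parse library (32.4% of all genes) and 0 in the 10x library (22.8% of all genes), and the median ratio was 4.35 against 1.09 over all genes. Myh11 was 34.4-fold higher (22.1 to 56.6), Myocd 21.7-fold (5.73 to 183) and Lmod1 13.1-fold (5.43 to 41.5). Acta2 was 2.93-fold higher and Tagln 1.22-fold (0.547 to 2.86). The study does not say whether these libraries were sequenced together. The kit, the nuclei isolation protocol, the gene annotation and the sorting of nuclei for 10x differed between them. These differences cannot be told apart.

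Nuclei were then separated by 3 genes. A nucleus with Myh11 or Acta2 and no Rgs5 was called smooth muscle type, one with Rgs5 and neither of the others pericyte type, and one with both sides double-positive, each from at least 1 UMI. Smooth muscle type, double-positive and pericyte type nuclei numbered 26, 0 and 9 in 10x mesPVAT. They numbered 337, 24 and 26 in Parse mesPVAT, 190, 2 and 43 in Parse RP fat, and 341, 121 and 155 in taPVAT. In BAT they numbered 332, 137 and 177, and in cow WAT 609, 120 and 106.

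Smooth muscle type nuclei made up 87.1% of nuclei with any of the 3 genes in Parse mesPVAT (83.3% to 90.3%) and 80.9% in Parse RP fat, against 55.3% in taPVAT and 51.4% in BAT. Cow WAT was in between, at 72.9% (69.8% to 75.9%). Double-positive nuclei made up 0.851% in Parse RP fat, 6.20% in Parse mesPVAT, 14.4% in cow WAT, 19.6% in taPVAT and 21.2% in BAT. They were the deepest of the 3 classes in Parse mesPVAT, taPVAT, BAT and cow WAT but not in Parse RP fat, where there were 2. In BAT their median was 3046 UMIs, against 2076 in smooth muscle type and 1904 in pericyte type nuclei. Cow WAT, the deepest library, had a smaller share of double-positive nuclei than taPVAT and BAT. It also differed in species and annotation, and the part of depth in these shares was not tested.

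**Figure D2:**
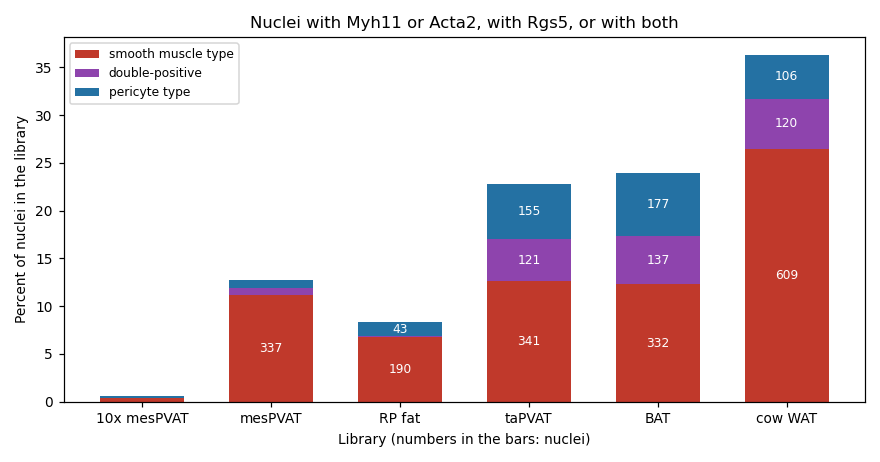
Percent of all nuclei in each library that were smooth muscle type, double-positive or pericyte type, with numbers of nuclei in the bars. Smooth muscle type nuclei are the largest class in every library, and the pericyte type reaches 155 nuclei in taPVAT and 177 in BAT but 26 in Parse mesPVAT.

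A single UMI was a loose criterion. Of smooth muscle type nuclei that passed the study's limits, 78 of 325 in taPVAT lay in a mural-like cluster (clusters are described below), while 85 lay in adipocyte-like, 61 in endothelial-like and 60 in stromal progenitor-like clusters. In BAT, 46 of 320 lay in mural-like, 143 in adipocyte-like and 108 in endothelial-like clusters. Of pericyte type nuclei, 18 of 143 in taPVAT and 38 of 166 in BAT lay in mural-like clusters. Endothelial-like clusters held 55 and 89 of them. In cow WAT, 119 of 463 smooth muscle type and 41 of 94 pericyte type nuclei lay in mural-like clusters. The class names thus state which genes were detected, not the cell type. The summed level of 11 adipocyte markers, all of them detected, was 11205 CPM in smooth muscle type nuclei of taPVAT and 11721 CPM in nuclei with none of the 3 genes. The summed level of 20 mural markers was 1333 CPM in the former, with Higd1b and Pln at 0, and 579 CPM in the latter. In BAT, these sums were 11446 against 13770 CPM for adipocyte markers and 1641 against 434 CPM for mural markers. The part of RNA from other nuclei in these classes was not tested.

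Nuclei with more UMIs of the 3 genes were therefore counted as well, with limits chosen after seeing the data. At least 5 UMIs of Myh11 and Acta2 together were held by 0 nuclei in 10x mesPVAT, 48 in Parse mesPVAT, 17 in Parse RP fat, 77 in taPVAT, 98 in BAT, with 133 in cow WAT. In BAT, these 98 nuclei of 2699 carried 84.7% of the UMIs of both genes, and 38.8% of them (29.1% to 49.2%) had Rgs5, against 11.6% of all nuclei. In Parse RP fat, 0 of the 17 had Rgs5, which allows a share of up to 17.6% at 3 counts (exact interval 0% to 19.5%). At least 3 UMIs of Rgs5 were held by 30 nuclei in taPVAT, 66 in BAT, with 48 in cow WAT, and 73.3%, 72.7% and 66.7% of these also had Myh11 or Acta2. Of all nuclei of these libraries, 17.1%, 17.4% and 31.7% had Myh11 or Acta2. Rgs5-rich nuclei thus mostly carried a UMI of a smooth muscle gene, while nuclei rich in Myh11 and Acta2 mostly had none of Rgs5. Of the latter, 27.3% in taPVAT and 21.8% in cow WAT had Rgs5, against 10.2% and 9.84% of all nuclei. Both sides thus lay above all nuclei in taPVAT, BAT and cow WAT, but depth was not matched here. In that order, Rgs5-rich nuclei had medians of 3645.5, 2944.5 and 9409 UMIs. Nuclei rich in Myh11 and Acta2 had medians of 2099, 3614.5 and 7222 UMIs, against 1246, 1706 and 3530 over all nuclei. Rgs5 was the sparser gene and had another cut-off, so the sides are not set on equal terms.

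Co-detection was set against the number expected within 10 bins of UMIs per nucleus, since deeper nuclei hold more of every gene. Acta2 and Myh11 were found together in BAT at 3.35 times the number expected, 3.31 times in taPVAT, 3.47 times in Parse mesPVAT, 5.38 times in Parse RP fat and 1.76 times in cow WAT. In 10x mesPVAT, 2 of 9 Acta2-positive nuclei had Myh11. Every Parse library thus held the pair above expectation. Of BAT nuclei with Acta2, 72.3% (63.3% to 80.1%) had Myh11, against 13.6% of nuclei without Acta2.

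Nuclei with Cnn1 or Des mostly had Myh11 in BAT and cow WAT. These shares were not matched for depth, unlike the ratios to the number expected. Of 25 nuclei with Cnn1 in BAT, 24 had Myh11, against 15.4% of nuclei without Cnn1, and in cow WAT 62 of 73 did, against 24.7%. In taPVAT, 7 of 15 did. Of nuclei with Des, 64.0% had Myh11 in BAT and 78.5% in cow WAT. Tagln and Acta2 were found together in BAT at 5.99 times the number expected, 5.15 times in taPVAT and 2.62 times in cow WAT.

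The share of Myocd-positive nuclei that had Myh11 differed between libraries, which also differed in depth. In taPVAT, 62.7% of 51 Myocd-positive nuclei had Myh11 (48.1% to 75.9%), against 14.5% of Myocd-negative nuclei, and 39 of 65 did in BAT and 63.7% of 190 in cow WAT. In Parse RP fat, where the Myocd level was highest, 8.51% of 47 did (2.37% to 20.4%), against 6.45% of the others and 0.972 times the number expected. In Parse mesPVAT, 29.6% of 54 did, 1.78 times the number expected. The Myocd-positive nuclei of Parse RP fat thus carried Myh11 about as often as their depth gave, on few nuclei with both genes. The median of that library was 213 UMIs per nucleus. Values against the number expected are given for the white depots alone, so the libraries are not compared on a common measure.

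Rgs5 and Myh11 were found together in BAT at 2.06 times the number expected, 2.27 times in taPVAT, 2.18 times in Parse mesPVAT, 1.19 times in cow WAT and 0.416 times in Parse RP fat, where 2 of 45 Rgs5-positive nuclei had Myh11. Rgs5 and Carmn were above the expected number in all 4 rat Parse libraries, with ratios of 2.35 in BAT, 2.36 in taPVAT, 2.17 in Parse mesPVAT and 2.02 in Parse RP fat, the last on 5 nuclei. Carmn was thus found with both Rgs5 and Myh11, the latter at 2.41 times the expected number in BAT and 2.58 times in taPVAT.

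The 7 genes that did not define the classes were compared between smooth muscle type and pericyte type nuclei within a library, in the 3 libraries with at least 50 nuclei of each type. Of those with at least 20 UMIs, 3 of 5 were at least 2-fold higher in smooth muscle type nuclei in taPVAT (4.46% of all genes), 5 of 7 in BAT (5.39%) and 3 of 6 in cow WAT (13.3%). None was higher in pericyte type nuclei, against 3.22%, 3.84% and 4.98% of all genes. Nuclei of a library are not replicates, so these ratios are descriptions.

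In BAT, Tagln stood at 76.0 CPM in smooth muscle type and 5.25 CPM in pericyte type nuclei, a ratio of 14.5 (4.77 to 71.9), and Myocd was 10.4-fold higher (3.89 to 39.3). Cnn1 had 26 UMIs in the former and 0 in the latter, a ratio of 5.16 with 3 counts put for the 0 (exact lower bound 3.91). Des was 2.68-fold and Carmn 2.45-fold higher, while Mylk and Lmod1 stayed under the limit, at 1.78-fold and 1.95-fold. Actin-binding, regulatory and filament genes thus all lay on the smooth muscle side in BAT. In taPVAT, Myocd was 6.99-fold higher (1.77 to 60.4), on 29 UMIs against 2, Tagln 3.05-fold (1.28 to 8.83) and Lmod1 2.08-fold, while Carmn stood at 1.60-fold and Mylk at 1.43-fold.

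In cow WAT, Des was 4.44-fold higher in smooth muscle type nuclei (1.48 to 21.8) and Myocd 2.68-fold (1.39 to 5.94). Cnn1 had 104 UMIs against 0, a ratio of 3.58 with 3 counts put for the 0 (exact lower bound 2.86). Tagln stood at 21.0 CPM in smooth muscle type and 29.3 CPM in pericyte type nuclei, a ratio of 0.717 whose interval of 0.452 to 1.19 held 1. Tagln was thus on the smooth muscle side in both brown rat depots and on neither in cow WAT.

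**Figure D3:**
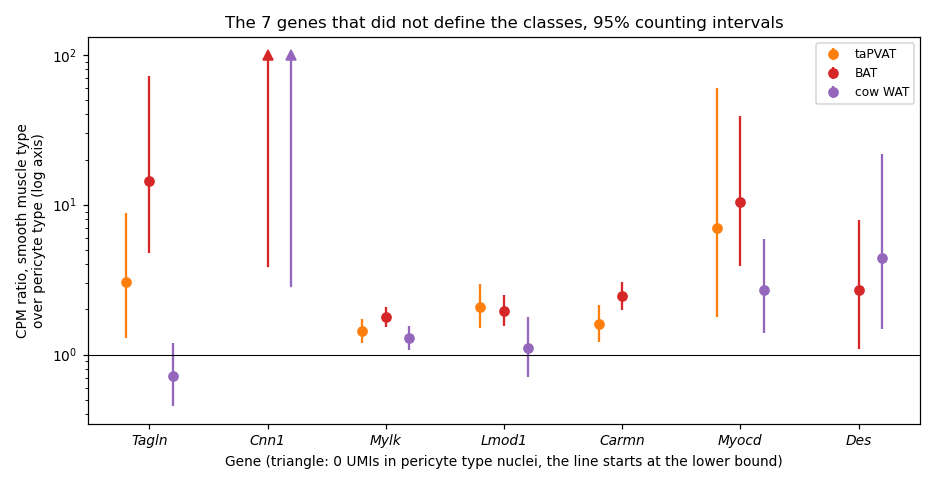
Ratio of CPM in smooth muscle type over pericyte type nuclei (log axis) for the 7 genes that did not define the classes, in taPVAT, BAT and cow WAT, with 95% counting intervals. Where pericyte type nuclei had 0 UMIs, a line starts at the lower bound and ends in a triangle, whose height is not a value. Tagln and Myocd reach 14.5 and 10.4 in BAT, whereas Tagln in cow WAT lies at 0.717.

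Of other contractile genes, 10 of 28 were at least 2-fold higher in smooth muscle type nuclei in taPVAT (4.46% of all genes), 15 of 32 in BAT (5.39%) and 5 of 34 in cow WAT (13.3%). In pericyte type nuclei, 0, 0 and 2 were higher, against 3.22%, 3.84% and 4.98% of all genes, so the cow counts lay near the share of all genes. The median ratio was 1.29, 1.82 and 0.973, against 1.01, 0.999 and 1.06 over all genes. Of other pericyte genes, 0 of 12 were higher in pericyte type nuclei in taPVAT, 2 of 13 in BAT and 10 of 15 in cow WAT, and 1, 1 and 2 in smooth muscle type nuclei.

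The next ratios are of the whole contractile and smooth muscle list, not of contractile genes alone. In BAT, the 4 largest were those of Pdlim3 (17.3-fold on 29 UMIs against 1, interval 2.86 to 705), Synpo2 (an actin-bundling protein, 12.9-fold), Ldb3 (10.1-fold) and Dmd (dystrophin, 10.1-fold on 996 UMIs against 59, 7.73 to 13.3). Actg2 (enteric smooth muscle actin) had 31 UMIs against 0 in BAT, a ratio of 6.15 with 3 counts put for the 0 (exact lower bound 4.71). In taPVAT the 4 largest were those of Casq2 (10.1-fold on 21 UMIs against 1, 1.63 to 418), Dmd (6.02-fold), Synpo2 (3.43-fold) and Tpm2 (a tropomyosin, 3.33-fold). In cow WAT they were those of Actg2 (4.23-fold on 82 UMIs against 2, 1.13 to 35.5), Ldb3 (3.16-fold on 92 UMIs against 3, 1.05 to 15.6), Klf4 (2.52-fold) and Ppp1r14a (2.27-fold on 44 UMIs against 2, 0.592 to 19.3). On the pericyte side, Pln (phospholamban, 3.05-fold) and Kcnmb1 (2.24-fold) passed 2-fold in cow WAT, and Synpo2 (1.87-fold) and Pdlim3 (1.85-fold) came next. In the rat, the lowest contractile ratios of smooth muscle over pericyte type were those of Srf (serum response factor, 0.567), Mrtfb (0.590), Npnt (0.630) and Mef2c (0.772) in taPVAT, and of Mrtfb (0.630), Klf4 (0.715), Srf (0.732) and Mef2c (0.837) in BAT. Of these, the intervals lay below 1 for Mrtfb alone (0.465 to 0.751 in taPVAT and 0.523 to 0.759 in BAT), and none passed 2-fold.

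Of the pericyte and mural list, Abcc9, a potassium channel subunit, was 3.23-fold and Steap4 2.25-fold higher in pericyte type nuclei of BAT. Heyl at 1.63-fold and Pdgfrb, a growth factor receptor of pericytes, at 1.32-fold came after them. In taPVAT, Heyl (1.89-fold), Egflam (1.70-fold), Abcc9 (1.66-fold) and Ebf1 (1.21-fold) stood highest on that side and none passed 2-fold. In cow WAT the 4 largest were those of Cox4i2 (13.6-fold), Steap4 (4.796-fold), Gucy1a1 (a subunit of the nitric oxide receptor, 4.33-fold) and Trpc6 (3.53-fold). On the smooth muscle side of this list, Gucy1a1 was 3.33-fold higher in smooth muscle type nuclei of BAT, Cspg4 2.01-fold in taPVAT, and Mcam 3.17-fold in cow WAT. Rgs4 in cow WAT gave 5.57-fold on 54 UMIs against 1, with an interval of 0.958 to 224 that holds 1. Next on the smooth muscle side, short of 2-fold, were Notch3 (1.73-fold), Gucy1a1 (1.43-fold) and Pdgfrb (1.15-fold) in taPVAT, and Mcam (1.88-fold), Cspg4 (1.57-fold) and Gucy1b1 (1.11-fold) in BAT. The summed endothelial markers were also higher in pericyte type nuclei, at 3178 against 1613 CPM in taPVAT. They stood at 3394 against 1747 CPM in BAT and 2901 against 1846 CPM in cow WAT, and their part was not tested. As given above, more pericyte type nuclei of taPVAT and BAT lay in endothelial-like than in mural-like clusters.

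By size of the ratio over all genes that are not members, Cpa6, a carboxypeptidase, led the smooth muscle side in BAT at 24.7-fold (11.2 to 68.0), followed by Cdh6 (a cadherin), Mgp (matrix Gla protein, an inhibitor of calcification), Tmem51 and Map3k7cl. Pdlim3 of the contractile list tied with Map3k7cl, at 17.3-fold. In taPVAT, Hgf (hepatocyte growth factor) led at 12.5-fold on 26 UMIs against 1 (2.06 to 514), followed by Zfp184, Casq2, C5h8orf34 and Dnah11. In cow WAT, the leaders with a symbol were RCAN2 (a regulator of calcineurin) at 12.6-fold (7.19 to 24.4), ENTREP1 and BCAT2.

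On the pericyte side, Cd38, Piezo2 (a mechanosensitive channel), Kcnt1 and C1qtnf9 led in taPVAT, at 4.67-fold to 4.15-fold. Efnb1 (an ephrin), Lurap1l, Acer2, Car2 and Map1lc3a led in BAT, at 6.72-fold to 5.37-fold. COX4I2, a cytochrome c oxidase subunit of the pericyte and mural list, led in cow WAT at 13.6-fold (5.61 to 34.1), with EBI3, PSRC1 and GJA4 (a connexin of vessels) after it. Most of these names depended on the minimum of 20 UMIs.

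Nuclei were also clustered within each library with the 10 genes left out, and clusters were named from other markers. Clusters named mural-like were found in taPVAT, BAT and cow WAT and in none of 10x mesPVAT, Parse mesPVAT and Parse RP fat. TaPVAT held 1 such cluster, cluster 6 with 190 nuclei, led by Pdgfrb, Abcc9 and Tbx5. BAT held cluster 6 with 134 nuclei, led by Abcc9, Tbx5 and Postn, and cluster 10 with 37 nuclei, led by Eln, Olr59, Nexn and Casq2. Cow WAT held cluster 2 with 262 nuclei, led by RERGL, and cluster 10 with 59 nuclei, led by RCAN2 and NDRG4.

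The genes left out divided the BAT pair. Myh11 stood at 12424 CPM in cluster 10 and 724 CPM in cluster 6, and all 37 nuclei of cluster 10 had it. Acta2 stood at 1584 and 54.3 CPM, a ratio of 29.2 (17.8 to 51.1). Rgs5 went the other way, at 55.4 CPM in cluster 10 and 1098 CPM in cluster 6, where 76.9% of nuclei had it, a 19.8-fold difference (9.51 to 49.6). The pair thus split by contractile against pericyte gene, although these genes had no part in forming it. Other genes of both kinds were not left out, such as Actn1 (52.6-fold higher in cluster 10) and Abcc9 (37.2-fold higher in cluster 6). The split is therefore not independent of the genes that could form the clusters.

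The other members followed the contractile side in BAT. Tagln was 28.7-fold higher in cluster 10, Cnn1 31.0-fold on 25 UMIs against 2 (7.73 to 270.2), Myocd 18.4-fold, Lmod1 8.05-fold, Des 5.87-fold and Mylk 3.28-fold. Carmn did not divide the pair. It stood at 2043 CPM in cluster 10 and 1669 CPM in cluster 6, a ratio of 1.22 (1.05 to 1.42), and was found in 94.6% and 88.1% of nuclei. In all, 8 of 10 members were at least 2-fold higher in cluster 10 (10.7% of all genes) and 1, Rgs5, in cluster 6 (18.2% of all genes). The choice to compare these clusters was made after they were seen. Of the 37 nuclei of cluster 10, 32 were smooth muscle type, so these ratios and the class ratios of BAT rest in part on the same UMIs.

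Cow WAT showed a like pair. Myh11 stood at 3710 CPM in cluster 10 and 155 CPM in cluster 2, Acta2 at 1665 and 187 CPM, and Rgs5 at 36.0 and 178 CPM. Des was 38.2-fold higher in cluster 10, Myh11 23.9-fold, Cnn1 22.2-fold, Myocd 13.8-fold, Acta2 8.89-fold, Lmod1 3.67-fold, Mylk 3.60-fold and Tagln 2.87-fold. Rgs5 was 4.94-fold higher in cluster 2. Thus 8 of 9 members were at least 2-fold higher in cluster 10 (11% of all genes) and 1 in cluster 2 (12.5% of all genes), as in BAT, while Rgs5 was found in 31.7% of the nuclei of cluster 2.

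**Figure D4:**
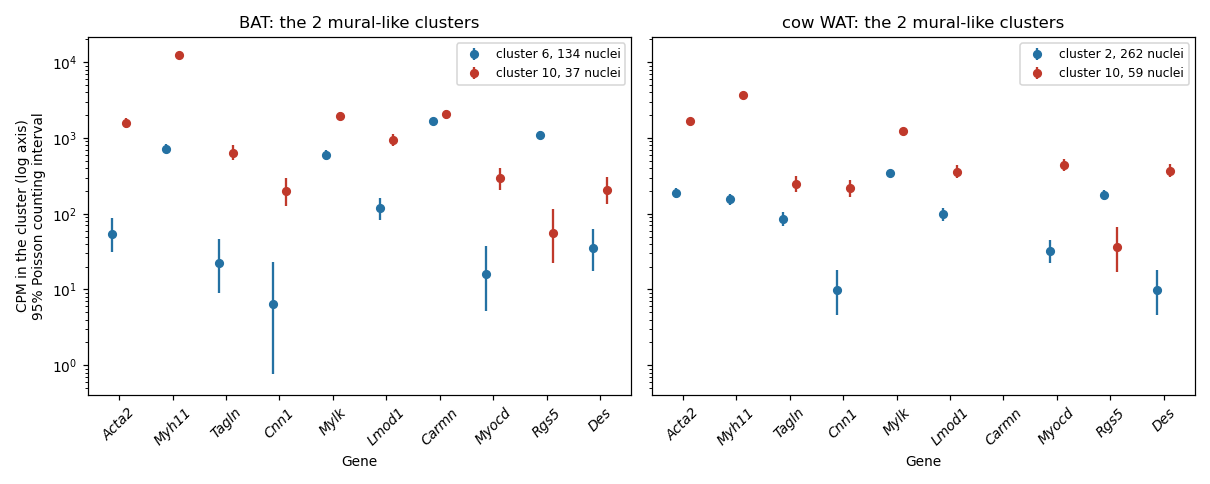
CPM (log axis) of each gene in the mural-like clusters of BAT (6 and 10) and cow WAT (2 and 10), which were formed without these genes, with 95% Poisson counting intervals. Myh11 reaches 12424 CPM in cluster 10 of BAT against 724 in cluster 6, Rgs5 is reversed at 55.4 against 1098, and Carmn is close, at 2043 and 1669.

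In taPVAT, the single mural-like cluster held both kinds of gene, with Myh11 at 2040 CPM, Acta2 at 367, Rgs5 at 418 and Carmn at 1206. Of its 190 nuclei, 78 were smooth muscle type, 18 pericyte type and 55 double-positive. Cluster 10 of BAT held 32 smooth muscle type, 5 double-positive and 0 pericyte type nuclei of 37, and cluster 6 held 14, 65 and 38 of 134. Cluster 10 of cow WAT held 52, 7 and 0 of 59, and cluster 2 held 67, 42 and 41 of 262. Smooth muscle type thus outnumbered pericyte type nuclei in cluster 2 of cow WAT, unlike in cluster 6 of BAT. At a Leiden resolution of 0.5, the BAT pair merged into 1 cluster of 168 nuclei. At 2.0 a like pair was found, with 131 and 36 nuclei. The cow pair shifted more. At 0.5 it held 36 and 320 nuclei, with Myh11 at 4239.8 and 370.4 CPM. At 2.0 the smaller cluster held 59 nuclei with Myh11 at 3710 CPM, and the rest fell into clusters of 148 and 115 nuclei with Myh11 at 149 and 140 CPM.

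Clusters also showed which members are not particular to mural nuclei. Mural-like clusters held 70.7% of Myh11 UMIs in BAT, 57.7% in taPVAT and 70.4% in cow WAT, in 6.51%, 7.21% and 16.0% of nuclei. Of Carmn UMIs, they held 70.3% in BAT and 55.1% in taPVAT. By contrast, adipocyte-like nuclei held 63.8% of Mylk UMIs and 61.0% of Lmod1 UMIs in BAT, where they were 53.2% of nuclei, and 51.8% and 51.3% in taPVAT, where they were 36.4%. Mural-like nuclei held 13.6% of both genes in BAT. A share of UMIs also rises with the depth of the nuclei, which was not matched here.

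Mylk stood at 617 CPM in adipocyte-like nuclei of BAT (590 to 644), against 554 CPM in the whole library. It stood at 987 CPM in mural-like nuclei, with 597 CPM in cluster 6 and 1956 CPM in cluster 10. Lmod1 stood at 214 CPM in adipocyte-like nuclei of BAT (198 to 230), above the 118 CPM of cluster 6 and below the 950 CPM of cluster 10. In cow WAT, Mylk reached 467 CPM in adipocyte-like nuclei against 92.2 CPM in endothelial-like nuclei, whereas Lmod1 stood at 4.39 CPM in adipocyte-like nuclei (0.906 to 12.8) and 154 CPM in mural-like nuclei. The mural-like clusters 10 and 2 of cow WAT held Mylk at 1226 and 341 CPM. Lmod1 was thus spread over adipocyte-like and mural-like nuclei in BAT, with the higher level in cluster 10, and was mural in cow WAT. Mylk was high in adipocyte-like nuclei of both BAT and cow WAT, but low in endothelial-like nuclei of cow WAT. The noncoding genes that overlap Mylk and Lmod1 may share these reads, which was not tested.

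**Figure D5:**
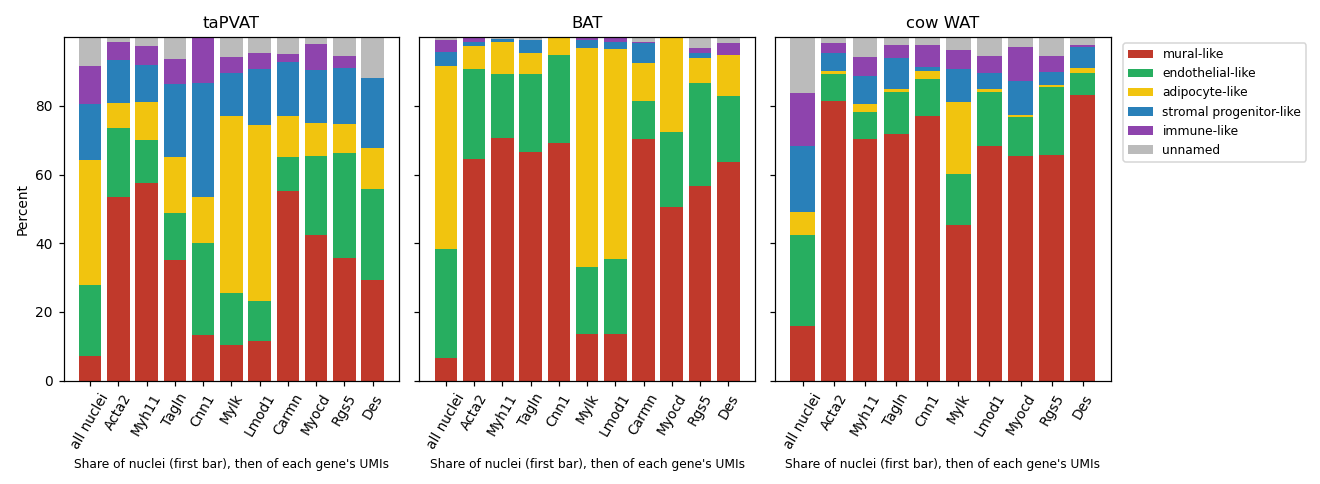
Share of nuclei in each named cluster class (first bar) and share of each gene's UMIs in that class (other bars), in taPVAT, BAT and cow WAT. Mural-like nuclei hold 70.7% of Myh11 UMIs in BAT, whereas adipocyte-like nuclei hold 63.8% of Mylk and 61.0% of Lmod1 UMIs.

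Myh11 was also found outside mural-like nuclei. In taPVAT, 8.76% of adipocyte-like nuclei had it, at a median of 1864 UMIs, against 67.4% of mural-like nuclei at a median of 1030.5 UMIs. Thinned to 200 UMIs per nucleus, these shares were 1.41% and 30.1%. In BAT they were 10.2% and 67.3%, or 1.34% and 30.1% after thinning, at medians of 2054.5 and 1742 UMIs. Rgs5 was found in 2.72% of adipocyte-like and 63.2% of mural-like nuclei of BAT, or 0.268% and 16.9% after thinning.

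In the white Parse depots, Myh11 was not held by 1 named class. In Parse mesPVAT, after thinning, 2.05% of adipocyte-like nuclei had Myh11, 6.97% of endothelial-like, 6.37% of stromal progenitor-like and 7.23% of unnamed nuclei. In Parse RP fat, the shares were 3.20% of adipocyte-like, 7.62% of stromal progenitor-like and 5.43% of unnamed nuclei. No named class thus stood out as mural-like nuclei did in BAT. No cluster was named mural-like in these libraries, and unnamed nuclei were counted together. They included 197 of 331 smooth muscle type nuclei in Parse mesPVAT and 142 of 183 in Parse RP fat. A single unnamed cluster rich in Myh11 would therefore not be seen here. The nucleus with most Myh11 in Parse mesPVAT held 57 of its UMIs in a total of 2483, with 0 of Acta2 and 0 of Rgs5.

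Thinned shares over whole libraries had another order than raw shares. Nuclei with Myh11 made up 11.4% of Parse mesPVAT, 6.49% of Parse RP fat, 15.4% of taPVAT, 16.2% of BAT and 26.6% of cow WAT. After thinning, they made up 6.06%, 5.39%, 4.27%, 4.26% and 2.88%, so both white rat depots were above the other 3 libraries. In CPM, BAT was above Parse RP fat, but their intervals overlapped, and sublibrary 1 alone gave the reverse (353 against 485 CPM). Thinning left out nuclei under 200 UMIs, 1302 of 2805 in Parse RP fat and 476 of 3028 in Parse mesPVAT. In 10x mesPVAT, 0.323% had Myh11, and 0.207% after thinning.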

How the data were processed

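Single-nucleus RNA-seq counts were used from 6 libraries, grouped by their labels, with 1 library per condition. For the Parse libraries, the deposited values are raw UMI counts per gene and called nucleus that the authors made with split-pipe, after sorting the reads by species, against GRCr8 for rat and ARS-UCD1.3 for cow, with 2 sublibraries joined. For 10x, the deposited UMI counts came from Cell Ranger 7.1.0, after nuclei were sorted by DAPI. The submitters' processing notes also name FastQC and Scanpy.

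UMIs were summed over all nuclei and scaled to CPM. Total UMIs ranged from 845316 to 16827260, so 1 UMI was worth between 0.0594 and 1.18 CPM. Intervals are exact at 95%, ratios have conditional binomial intervals, and a count of 0 was given 3 counts as its limit. Genes with at least 20 UMIs over both sides entered a comparison, and at least 2-fold was the call. No p-value was computed. Shares at equal depth were the expected detection after thinning nuclei of at least 200 UMIs to 200, which left out 3788, 476 and 1302 nuclei of 10x mesPVAT and of Parse mesPVAT and Parse RP fat, and none elsewhere.

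For clusters, nuclei were kept by the study's limits (100 to 15000 UMIs, at most 4500 genes and 3% mitochondrial UMIs, within 5 median absolute deviations), scaled to 1000 UMIs and clustered per library without the 10 members (2000 variable genes, 30 principal components, 15 neighbours, Leiden resolution 1). A cluster took the name of the class with most raised markers. These had to number at least 3 and more than 1 in 3 of that class's markers in the library, without a tie. A raised marker had at least 2 times the median CPM of the other clusters, detection in at least 5% of nuclei and at least 10 UMIs. No other class could hold more of the cluster's 10 leading genes. Clusters of low depth with no marker of the class among these stayed unnamed. The marker and pathway lists and the members were chosen with earlier results of these data known. Genes named beyond the members were the 5 largest ratios in each direction with at least 20 UMIs and detection in at least 5% of the higher class, and from each pathway list the 4 largest ratios in each direction. Of the former, 4 are known by identifier alone and are not named. Scrublet, at an expected rate of 5%, marked under 0.5% of nuclei. Tools were scanpy 1.11.5 with igraph 0.11.9 and scikit-learn 1.9.0 for clusters, scipy 1.17.1 for intervals and pandas 2.3.3 for tables, all under Python 3.11.15. The ratios between libraries, their fold calls and intervals, and the thinning were tested on simulated data. The other steps, among them clusters, classes and co-detection, were not.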

Additional observations from a re-analysis of the deposited data

How the results depend on the processing

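The main values were the levels of Acta2, Myh11 and Rgs5, the class shares, and the counts of members past a fold. Of their alternatives, 158 stayed within the counting interval or within 1.5 times the count and 76 moved. Of the alternatives of all other values, 545 stayed, 199 moved and 5 reversed. The ratio of taPVAT over BAT reversed for Acta2 and Cnn1, to 1.11 and 1.40 in sublibrary 1 alone and to 1.10 and 1.2997 with each nucleus weighted equally, and that of Parse mesPVAT over Parse RP fat reversed for Tagln, to 1.15 in sublibrary 2 alone. With at least 500 UMIs per nucleus, 10x mesPVAT stood at 0 CPM for Acta2, 9.71 for Myh11 and 14.6 for Rgs5, Parse mesPVAT at 640 for Myh11, and Parse RP fat at 49.9 for Acta2 and 536 for Myh11. Under the study's limits, BAT stood at 57.8 CPM for Acta2 and 436 for Myh11, and cow WAT at 97.3, 205 and 35.5 for Acta2, Myh11 and Rgs5. With each nucleus weighted equally, Myh11 stood at 475 CPM in Parse mesPVAT, 371 in Parse RP fat, 319 in taPVAT, 378 in BAT, with 189 in cow WAT. Acta2 then stood at 57.3 in taPVAT, 52.3 in BAT, with 80.3 in cow WAT, and Rgs5 at 107 in taPVAT and 31.6 in cow WAT. With the most abundant gene left out of the total, Acta2, Myh11 and Rgs5 stood at 55.0, 270.1 and 92.8 CPM in taPVAT, 79.7, 562 and 125 in BAT, and 73.4, 159 and 31.3 in cow WAT.

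In sublibrary 1 alone, Myh11 stood at 485 CPM in Parse RP fat, 280.3 in taPVAT, 353 in BAT, with 151 in cow WAT, Acta2 at 47.5 in BAT and 70.2 in cow WAT, and Rgs5 at 39.7 in Parse RP fat. In sublibrary 2 alone, Myh11 stood at 360.1, 193, 634 and 132 CPM in those libraries, Acta2 at 19.1 in Parse RP fat, 92.5 in BAT and 60.9 in cow WAT, and Rgs5 at 73.7 in Parse RP fat and 101 in BAT. Without the nucleus with most Myh11 and Acta2, an alternative chosen after seeing the data, BAT stood at 60.8 for Acta2 and 462 for Myh11, and cow WAT at 135 for Myh11. Without the highest doublet scores, BAT stood at 516 for Myh11.

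With at least 2 UMIs, smooth muscle type nuclei made up 100% in 10x mesPVAT, 98.1% in Parse mesPVAT, 98.3% in Parse RP fat, 67.4% in taPVAT, 55.4% in BAT, with 78.2% in cow WAT. Double-positive nuclei then made up 1.23%, 0%, 11.9%, 17.6% and 9.87% in the 5 Parse libraries. With at least 500 UMIs per nucleus, smooth muscle type nuclei made up 40% in 10x mesPVAT and 74.4% in Parse RP fat, and double-positive nuclei 9.17% in Parse mesPVAT and 0% in Parse RP fat. In cow WAT, Myh11 alone gave 69.4% smooth muscle type and the study's limits gave 11.4% double-positive.

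Members higher in BAT than in taPVAT numbered 4 at 1.5-fold, 0 at 3-fold, 1 with at least 100 UMIs and 1 under the study's limits. Members higher in Parse RP fat than in Parse mesPVAT numbered 4 at 1.5-fold, 0 at 3-fold and 0 with at least 100 UMIs, and 1 was higher the other way at 1.5-fold. Members higher in Parse than in 10x mesPVAT numbered 2 with at least 100 UMIs. The cause was not tested. With at least 50 UMIs, 0, 1, 3, 0, 5 and 2 of the 5 genes named on the smooth muscle and pericyte sides of taPVAT, BAT and cow WAT remained. No paired analysis was possible because each condition has 1 library, and no replicate could be left out. Depth limits the sparse genes most: at 213 UMIs per nucleus, absence of a UMI says little about a nucleus.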

Other observations

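Neb, which encodes the striated muscle protein nebulin, was among the 10 leading genes of the mural-like cluster of taPVAT and of cluster 6 of BAT, both of which carried Rgs5 at 418 and 1098 CPM. Gipr, the receptor for the gut hormone GIP, was also among the leading genes of both. Neither was among the leading genes of the other mural-like clusters. These genes were chosen after their values were seen.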
